A study of Homo sapiens with 6 samples.

Results

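The receptor tyrosine kinase genes of 12Z cells, leaving aside the Eph receptors, were followed after knockdown of a long non-coding RNA. The line, 12Z, is an immortalised one that came from epithelial cells of an endometriosis lesion. RNA was measured 72 h after transfection at the stated passage, p40, in cells given 1 siRNA against LINC01638 (LINC01638_2, replicates A, B and C) and in cells given a commercial control siRNA (replicates A, B and C). The members are a list of 37 genes, taken by symbol out of the 62696 genes counted, and all 37 symbols were found. Total RNA was depleted of ribosomal RNA and sequenced with strand information. The labels do not say that the replicates were separate cultures, so p-values refer only to how these libraries vary, and that variation may be technical. A single siRNA was used, so effects of the siRNA itself and of its target cannot be told apart.

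A receptor tyrosine kinase spans the plasma membrane, binds a ligand outside the cell and carries a kinase domain inside it. Ligand binding joins receptors into pairs that phosphorylate each other on tyrosine, and adaptor proteins then dock on the phosphorylated tails and switch on RAS-ERK, PI3K-AKT and other pathways. In epithelia these receptors are known for control of growth, survival, migration and the response to stromal signals. Some members, among them ERBB3, PTK7 and RYK, carry kinase domains that lack or have little catalytic activity and act through partners.

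The depth per library was 50470195 to 58148664 gene counts with LINC01638 siRNA and 45617234 to 55031286 with control siRNA. LINC01638 itself had 125, 103 and 123 counts in the LINC01638 siRNA libraries, against 407, 334 and 414 in the control libraries. Reads outside annotated exons made up 12.1% to 15.1% of mapped reads with LINC01638 siRNA and 8.32% to 10.1% with control siRNA. Their part in the results below was not tested. The cell identity was mixed by markers: the keratin genes KRT8, KRT18 and KRT19 averaged 1813, 988 and 542.5 CPM with LINC01638 siRNA (CPM, counts scaled to library size), and 2604, 1336 and 1422 CPM with control siRNA. The epithelial genes ESRP1 and GRHL2 were at or near 0 in both groups. EPCAM averaged 1.38 CPM with LINC01638 siRNA and 0.377 CPM with control siRNA (3.64-fold higher). CDH1 went the other way, at 3.58 and 8.14 CPM (2.27-fold lower). Of the 10 epithelial markers 8 were tested, 5 lower and 1 higher, and their summed level was 3181 to 3710 CPM with LINC01638 siRNA and 5173 to 5619 CPM with control siRNA. Stromal markers were high, with a summed level of 6348 to 6652 CPM for 7 genes with LINC01638 siRNA and 9051 to 10450 CPM with control siRNA, and all 7 were lower with LINC01638 siRNA. The 7 endothelial markers summed to 4.68 to 5.41 CPM and 4.02 to 4.28 CPM, with PECAM1, ERG, EMCN and CLDN5 at or near 0. Of the 3 endothelial markers tested, CDH5 was 1.71-fold higher, VWF 1.81-fold higher and ROBO4 1.38-fold lower with LINC01638 siRNA. Leukocyte markers summed to 34.7 to 36 CPM and 46.4 to 53.6 CPM, nearly all of it CD14, with CD3E and SPI1 at or near 0. SOX10, a marker of Schwann and neural crest cells, was at or near 0 in both groups. The part of these marker differences in the results below was not tested.

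Among the most changed members are NTRK3, AXL, TIE1 and FLT1, and the 250 bases before their RefSeq transcription starts (GRCh38.p14, each written 5′ to 3′ on the strand of its gene) are shown so that their start regions can be compared. NTRK3 lies at chr15:88256740-88256989 (minus strand), AXL at chr19:41218973-41219222 (plus strand, the first of its RefSeq starts), TIE1 at chr1:43300732-43300981 (plus strand) and FLT1 at chr13:28495129-28495378 (minus strand). Capitals mark matches, on either strand, to 6 short words. The SP1 GC box was searched as GGGCGG, and the word of the AP-1 factors was TGANTCA. ETS factors, which act downstream of ERK, were searched as CCGGAA. The E-box word bound by SNAI and ZEB factors was CAGGTG, and the TATA box was searched as TATAAA. For the EGR factors the word was GCGGGGGCG, which can overlap the GC box.
NTRK3: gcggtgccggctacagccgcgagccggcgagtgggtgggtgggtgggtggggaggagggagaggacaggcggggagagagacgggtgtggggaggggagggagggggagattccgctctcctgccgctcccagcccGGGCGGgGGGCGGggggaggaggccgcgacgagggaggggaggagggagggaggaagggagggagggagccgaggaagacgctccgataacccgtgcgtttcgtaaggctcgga
AXL: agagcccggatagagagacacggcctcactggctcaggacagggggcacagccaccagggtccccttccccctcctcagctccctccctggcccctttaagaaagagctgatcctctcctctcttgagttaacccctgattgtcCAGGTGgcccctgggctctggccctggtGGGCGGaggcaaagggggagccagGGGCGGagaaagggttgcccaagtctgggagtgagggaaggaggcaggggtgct
TIE1: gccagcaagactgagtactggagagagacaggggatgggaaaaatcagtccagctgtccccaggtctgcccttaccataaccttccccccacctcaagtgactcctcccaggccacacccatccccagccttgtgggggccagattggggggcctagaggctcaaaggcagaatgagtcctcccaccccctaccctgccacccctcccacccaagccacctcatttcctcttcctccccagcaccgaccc
FLT1: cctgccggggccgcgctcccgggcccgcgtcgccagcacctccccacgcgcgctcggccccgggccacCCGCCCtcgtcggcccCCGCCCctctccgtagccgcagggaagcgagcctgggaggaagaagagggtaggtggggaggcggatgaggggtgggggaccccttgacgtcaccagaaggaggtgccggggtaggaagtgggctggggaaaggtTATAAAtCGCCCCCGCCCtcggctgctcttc
The window of NTRK3 held 2 GC boxes, that of AXL 2 GC boxes and 1 CAGGTG, and that of TIE1 none of the words. The FLT1 window held a TATAAA, an EGR word that overlaps a GC box, and 2 further GC boxes. Among all 35116 RefSeq start regions of this length, 42.6% held the GC box, 17.5% CAGGTG, 10.7% TATAAA and 4.72% the EGR word. A match is a run of letters, not a bound site.

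AXL stood far above every other member. Levels between genes were compared as CPM per kilobase of annotated exon (GENCODE 29, all exons joined, which may not be the isoforms used in these cells). AXL averaged 81.3 ± 4.45 CPM per kb with LINC01638 siRNA and 186 ± 11.8 with control siRNA (SD, n = 3 each). In control libraries PTK7 came next at 29.3 ± 2.27, then EGFR at 22.3 ± 3.16. DDR1 at 16.1 ± 1.28, DDR2 at 15.9 ± 1.82 and ERBB2 at 15.4 ± 1.44 did not differ beyond their spread. The order shifted with LINC01638 siRNA: DDR1 (21.3 ± 0.371) stood above EGFR (18.0 ± 1.32), and LMTK2 (11.5 ± 0.906) above ERBB2 (9.87 ± 0.247). At the low end 6 members, NTRK2, FLT3, FGFR2, TEK, ALK and MUSK, had too few reads to be tested, with at most 16 counts in any library.

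**Figure D1:**
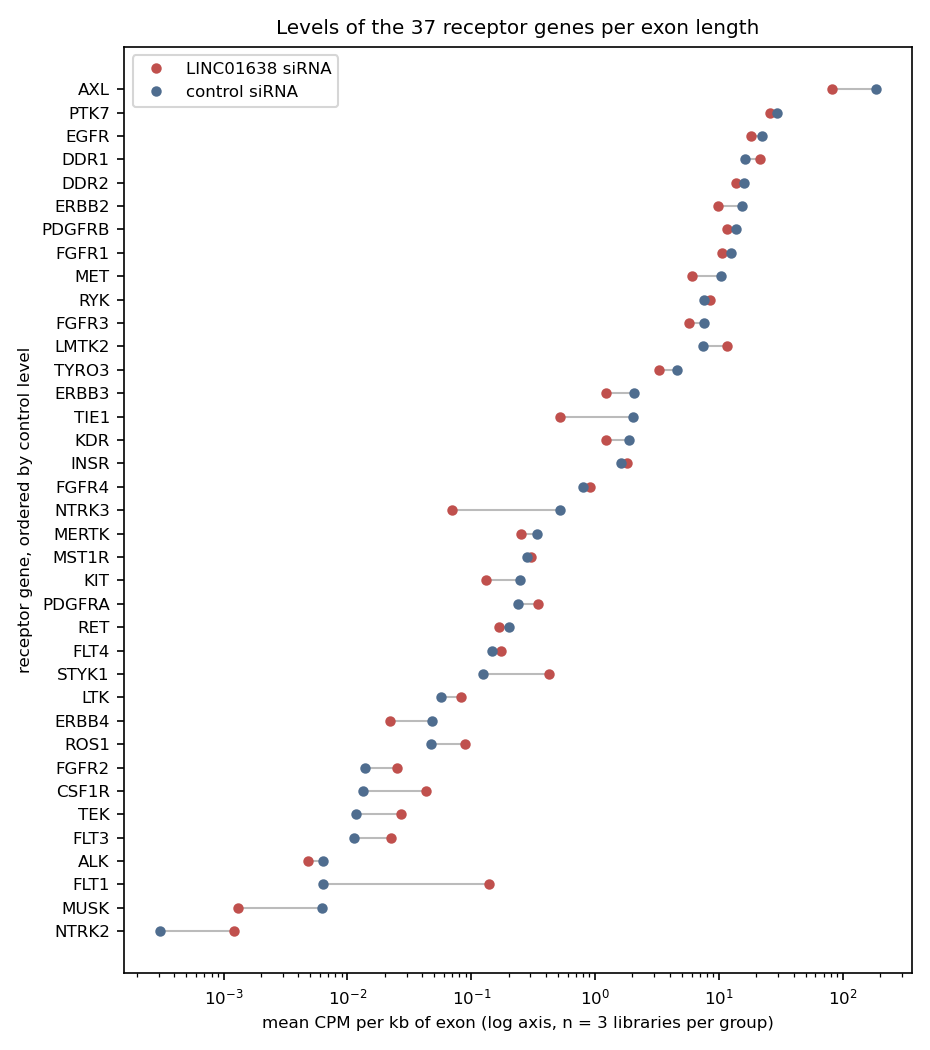
Mean level of each of the 37 receptor genes in CPM per kb of exon on a log axis, in the LINC01638 siRNA and the control siRNA group (n = 3 libraries each), ordered by the control level. AXL stands above all others in both groups, and FLT1 and NTRK3 show the widest gaps between groups among genes with more than a few reads.

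Of the 31 members that passed the count filter, 24 passed an edgeR adjusted p of 0.05 between the siRNA groups, 16 lower and 8 higher with LINC01638 siRNA. The share of calls was 77.4%, against 56.0% of all 18569 genes tested, of which 26.3% were higher and 29.6% lower. Where the mean level reached 5 CPM, the share of all genes called was 69.5% (39.9% lower and 29.6% higher). At that level 18 members stood, with 14 lower, 3 higher and 1, INSR, that did not pass. The members' median log2 fold change was −0.25, and that of all genes tested was −0.00. A change of at least 1.5-fold was called for 14 members, where 22.8% of all genes tested had one, and of at least 2-fold for 7, where 9.60% did. Libraries of the 2 groups had no overlapping values in 20 of the members tested, or 64.5%, against 61.5% of all genes tested. CSF1R, FLT1 and LTK passed the filter through the LINC01638 siRNA libraries alone, so a difference was built into their inclusion. Scaling by library totals alone moved the median of all genes by 0.10 and called 6349 of them higher and 4288 lower, against 4887 and 5503 with the scaling used here. It called 12 members lower and 10 higher, and the calls of EGFR, PDGFRB, DDR2 and PTK7 were lost.

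**Figure D2:**
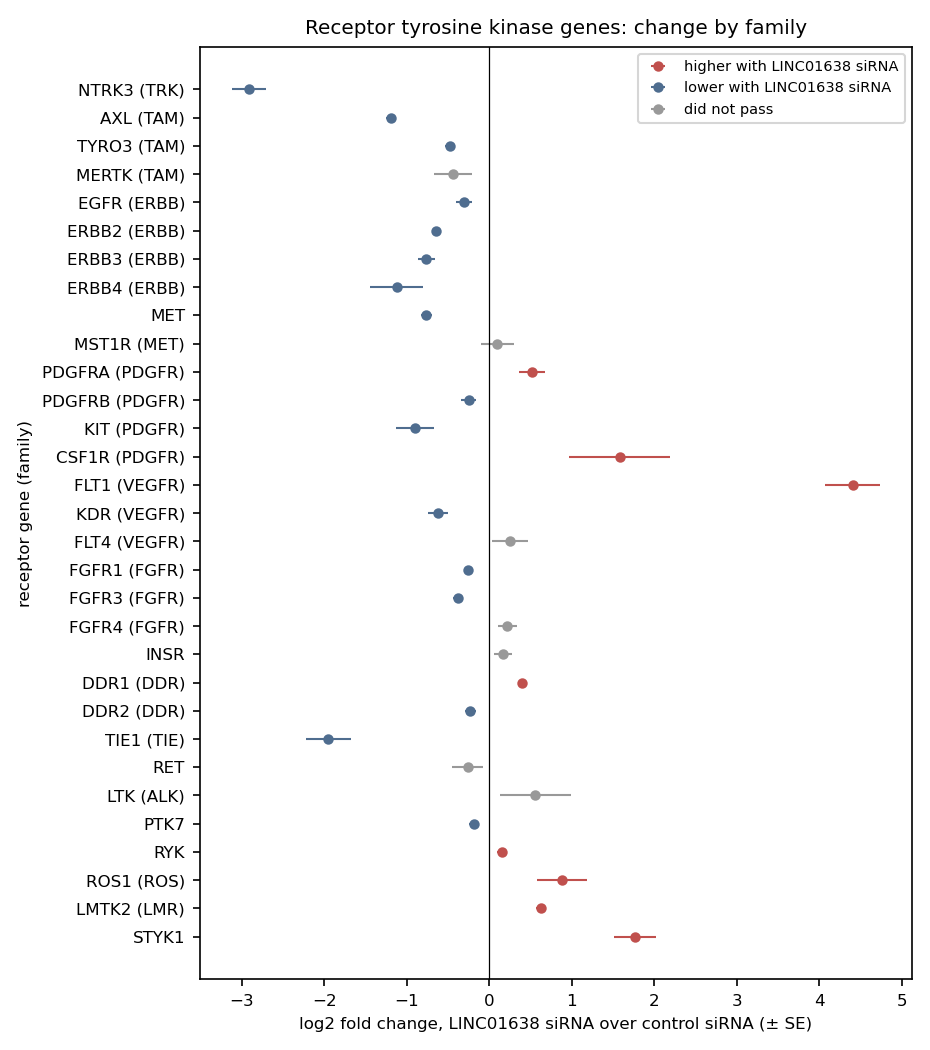
Log2 fold change (LINC01638 siRNA over control siRNA, ± SE, n = 3 each) of the 31 receptor genes tested, by family, coloured by direction among genes past an adjusted p of 0.05. All 4 ErbB genes lie left of 0, and FLT1 (4.40) and NTRK3 (−2.91) lie farthest out on either side. Of all genes tested, 29.6% were called lower and 26.3% higher.

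The neurotrophin receptor gene NTRK3 (ENSG00000140538.17, chromosome 15, 87859751 to 88256768, minus strand) encodes TrkC. It had 125, 118 and 63 counts with LINC01638 siRNA, against 711, 638 and 736 with control siRNA. Scaled, these were 2.29, 2.27 and 1.05 CPM with LINC01638 siRNA, and 13.3, 14.6 and 13.9 CPM with control siRNA. Every control library held several times the level of any LINC01638 siRNA library, and LINC01638 siRNA replicate C was the lowest of all. The related receptor gene NTRK2 (TrkB) was at 0 to 3 counts in each library. Gene counts do not separate the full-length TrkC from its forms without a kinase domain. Of the neurotrophin ligand genes, that of NTF3, the main TrkC ligand, had 1 count in all 6 libraries together, and BDNF, which binds TrkB, averaged 88.6 ± 4.61 and 83.9 ± 1.28 CPM and did not pass (adjusted p = 0.196). NGFR, the p75 receptor that binds all neurotrophins, rose to 1.42 ± 0.0684 CPM with LINC01638 siRNA, against 0.591 ± 0.111 CPM with control siRNA (2.38-fold, adjusted p = 6.57e-05). SORT1, a sorting receptor for neurotrophins and their precursors, rose 1.34-fold.

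The TAM receptors AXL, TYRO3 and MERTK bind GAS6 and protein S and are known for survival signalling and the uptake of dying cells. AXL (ENSG00000167601.12, chromosome 19, 41219203 to 41261766, plus strand) had 407, 445.5 and 405 CPM in LINC01638 siRNA libraries, against 904, 1024 and 948 CPM in control libraries. The groups were far apart, and AXL fell 2.29-fold (adjusted p = 4.18e-12). TYRO3 stood at 35.0, 35.5 and 36.6 CPM with LINC01638 siRNA, against 47.0, 52.1 and 50.3 CPM with control siRNA, a smaller fall that was also outside the range of the control libraries (log2 fold change −0.48, SE 0.0557, adjusted p = 3.99e-07). MERTK had 1.5, 1.35 and 0.715 CPM against 1.39, 1.58 and 1.83 CPM, overlapping groups that did not pass (adjusted p = 0.118). Per length, AXL made up 95.7% to 96.1% of the family with LINC01638 siRNA and 97.4% to 97.5% with control siRNA. The ligand genes moved apart. GAS6 fell to 84.8 ± 6.46 CPM with LINC01638 siRNA, against 155 ± 9.99 CPM with control siRNA (1.82-fold, adjusted p = 3.38e-10), while PROS1, which encodes protein S, rose 1.19-fold to 46.0 ± 2.18 CPM, against 38.6 ± 4.66 CPM (adjusted p = 0.00693).

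All 4 ErbB receptor genes were lower with LINC01638 siRNA. Of all genes tested 29.6% were called lower, and 39.9% of those at 5 CPM or more. EGFR, the receptor of EGF and related ligands, had 243, 223 and 210.0 CPM with LINC01638 siRNA, against 236, 314 and 288 CPM with control siRNA. These ranges overlap, since control replicate A lay among the LINC01638 siRNA libraries. The fall was 1.24-fold (adjusted p = 0.0205). It did not pass without control replicate C (adjusted p = 0.0504) or with library totals (0.0834). ERBB2, which has no known ligand and pairs with the other ErbB receptors, stood at 105, 100 and 101 CPM, against 143, 172 and 162 CPM in control libraries. No value was shared between the groups, and the fall was 1.56-fold (adjusted p = 1.79e-08). Reads on the strand opposite ERBB2, where PGAP3 and MIEN1 overlap its exons, made up 11.9% of both strands and were kept out by the strand-specific count. ERBB3, a neuregulin receptor with little kinase activity of its own, had 11.5, 10.2 and 11.4 CPM with LINC01638 siRNA, against 15.4, 21.4 and 19.4 CPM with control siRNA (1.69-fold lower, adjusted p = 8.33e-06). ERBB4, a neuregulin receptor with an active kinase, was at 10 to 20 counts per library with LINC01638 siRNA and 25 to 38 with control siRNA, and fell 2.17-fold (adjusted p = 0.00602). Per length EGFR held 60.3% to 62.9% of the family with LINC01638 siRNA and 54.8% to 56.8% with control siRNA, and ERBB2 32.9% to 35.1% and 37.8% to 40.2%.

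ErbB ligand genes moved in both directions. Of the 4 listed neuregulins, ligands of ERBB3 and ERBB4, NRG3 and NRG4 had too few reads for a test. NRG1 fell to 4.51 ± 0.253 CPM with LINC01638 siRNA, against 10.9 ± 0.811 CPM with control siRNA (adjusted p = 9.75e-10), and NRG2 fell to 0.834 ± 0.238 CPM, against 2.24 ± 0.0774 CPM (adjusted p = 5.71e-06). The EGFR ligand genes HBEGF, EPGN, AREG and EGF, singled out after their values were seen, were called higher. HBEGF, a heparin-binding ligand, stood at 85.2 ± 3.74 CPM with LINC01638 siRNA and 62.8 ± 0.900 CPM with control siRNA (adjusted p = 2.55e-07), and EPGN rose 1.39-fold (adjusted p = 0.0469). AREG rose to 0.695 ± 0.0994 CPM, against 0.237 ± 0.127 CPM, and EGF to 0.428 ± 0.0755 CPM, against 0.0940 ± 0.0938 CPM, both low levels. AREG and EGF entered the test through the LINC01638 siRNA libraries alone, so a difference was built into their inclusion. TGFA, EREG and BTC had too few reads for a test.

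MET, the receptor of hepatocyte growth factor, is known for epithelial scattering and invasion. Its level was 43.4, 44.5 and 41.2 CPM in LINC01638 siRNA libraries, against 63.8, 80.3 and 74.9 CPM in control libraries. The groups were well separated (1.70-fold lower, adjusted p = 5.93e-08). Its ligand gene HGF was nearly silent, at 0.0178 CPM with LINC01638 siRNA and 0.0403 CPM with control siRNA. MST1R (RON), the second receptor of the family, averaged 1.59 ± 0.455 CPM with LINC01638 siRNA and 1.49 ± 0.127 CPM with control siRNA and did not pass (adjusted p = 0.704). The gene of its ligand, MST1, fell to 4.07 ± 0.197 CPM with LINC01638 siRNA, against 8.43 ± 0.373 CPM with control siRNA (adjusted p = 1.74e-08).

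Receptors of the PDGF, stem cell factor and CSF-1 family went both ways. PDGFRB, the receptor of PDGF-B and PDGF-D in stromal cells, led the family in 12Z cells with 88.7, 71.9 and 86.9 CPM with LINC01638 siRNA, against 87.9, 106 and 101 CPM with control siRNA. The ranges overlapped, and its fall of 1.19-fold (adjusted p = 0.0282) did not pass without control replicate B (adjusted p = 0.0945) or C (0.0845), or with a stricter count filter (0.0607). PDGFRA, which also binds PDGF-A and PDGF-C, had 2.62, 3.70 and 3.69 CPM, against 2.06, 2.31 and 2.62 CPM in control libraries, so that the lowest LINC01638 siRNA library touched the highest control library (1.43-fold higher, adjusted p = 0.00786). KIT, the stem cell factor receptor, was at 0.971, 0.558 and 0.682 CPM with LINC01638 siRNA, against 1.52, 1.47 and 1.15 CPM with control siRNA, without overlap (1.86-fold lower, adjusted p = 0.00272). CSF1R, the receptor of macrophage growth factor, had 11, 12 and 14 counts against 8, 0 and 3. Its call (adjusted p = 0.0339) was lost in 4 of the 6 fits that left out a library, with the highest adjusted p, 0.137, without control replicate B. Its log2 fold change of 1.58 ranged from 1.08 without control replicate B up to 2.76 without control replicate A. The call was also lost in DESeq2 (adjusted p = 0.0627), and 88.0% of the reads over CSF1R lay on the opposite strand.

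Ligand genes of this family also moved in both directions. PDGFA and PDGFB fell, PDGFB to 14.2 ± 1.80 CPM with LINC01638 siRNA, against 29.4 ± 1.40 CPM with control siRNA (2.07-fold, adjusted p = 1.60e-09). PDGFD rose to 8.25 ± 0.529 CPM, against 3.62 ± 0.293 CPM with control siRNA (2.28-fold, adjusted p = 8.43e-09), and PDGFC rose by 0.33 on the log2 scale. KITLG, which encodes stem cell factor, was 2.00-fold higher at 30.8 ± 3.78 CPM, against 15.4 ± 0.927 CPM in control libraries (adjusted p = 4.27e-09), while its receptor gene KIT was lower. CSF1 rose 1.75-fold, to 154 ± 5.33 CPM with LINC01638 siRNA, against 87.9 ± 10.1 CPM with control siRNA (adjusted p = 2.74e-08).

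FLT1 had the largest rise of the members. It encodes VEGFR1, which binds VEGFA, VEGFB and PGF and has a soluble form that traps VEGF (chromosome 13, 28300344 to 28495145, minus strand, ENSG00000102755.12). FLT1 had 88, 93 and 109 counts in LINC01638 siRNA libraries, against 7, 3 and 2 in control libraries. It passed the count filter through the LINC01638 siRNA libraries alone, so a difference was built into its inclusion. The size of its fold change rests on these few control counts. Its level was 1.74 ± 0.110 CPM with LINC01638 siRNA and 0.0793 ± 0.0477 CPM with control siRNA (log2 fold change 4.40, SE 0.328, adjusted p = 8.96e-10). The log2 fold change was 3.29 with counts without strand and 5.01 without control replicate A. The mean of all libraries was under 1 CPM, so FLT1, like STYK1 below, was singled out after its value was seen. KDR (VEGFR2), the main signalling receptor of VEGFA, moved the other way, at 9.23, 8.06 and 6.69 CPM with LINC01638 siRNA, against 10.5, 12.8 and 13.5 CPM with control siRNA (1.54-fold lower, adjusted p = 2.50e-04). FLT4 (VEGFR3), the lymphatic receptor, averaged 1.53 ± 0.260 and 1.29 ± 0.371 CPM and did not pass (adjusted p = 0.337). Per length, FLT1 held 7.43% to 10.7% of the VEGF receptor family with LINC01638 siRNA and 0.134% to 0.611% with control siRNA. VEGFA fell 1.32-fold to 55.0 ± 5.34 CPM, against 72.8 ± 2.48 CPM with control siRNA, and VEGFB fell 1.30-fold. The co-receptor gene NRP2 fell to 7.4 ± 1.13 CPM with LINC01638 siRNA, against 14.4 ± 1.48 CPM with control siRNA (adjusted p = 3.07e-07), and NRP1 fell by 0.33 on the log2 scale.

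TIE1, a receptor without a ligand of its own that pairs with the angiopoietin receptor TIE2, is known from endothelium (ENSG00000066056.14, chromosome 1, 43300993 to 43323108, plus strand). Its level was 2.64, 5.08 and 2.79 CPM in LINC01638 siRNA libraries, against 11.1, 15.8 and 13.4 CPM in control libraries. Replicate B was the highest in each group, yet the groups stayed apart (3.85-fold lower, adjusted p = 0.00120). TEK, which encodes TIE2, was at 0 to 11 counts, and its ligand gene ANGPT2 at 1 count in all libraries. ANGPT1 averaged 0.762 ± 0.108 and 0.945 ± 0.252 CPM and did not pass (adjusted p = 0.329). Of the endothelial markers tested, CDH5 was higher, at 1.78 ± 0.191 CPM with LINC01638 siRNA and 1.05 ± 0.0879 CPM with control siRNA. VWF was also higher, at 1.46 ± 0.402 and 0.805 ± 0.229 CPM, with overlapping libraries. ROBO4 was lower, as TIE1 was, at 1.53 ± 0.0576 and 2.12 ± 0.139 CPM.

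**Figure D3:**
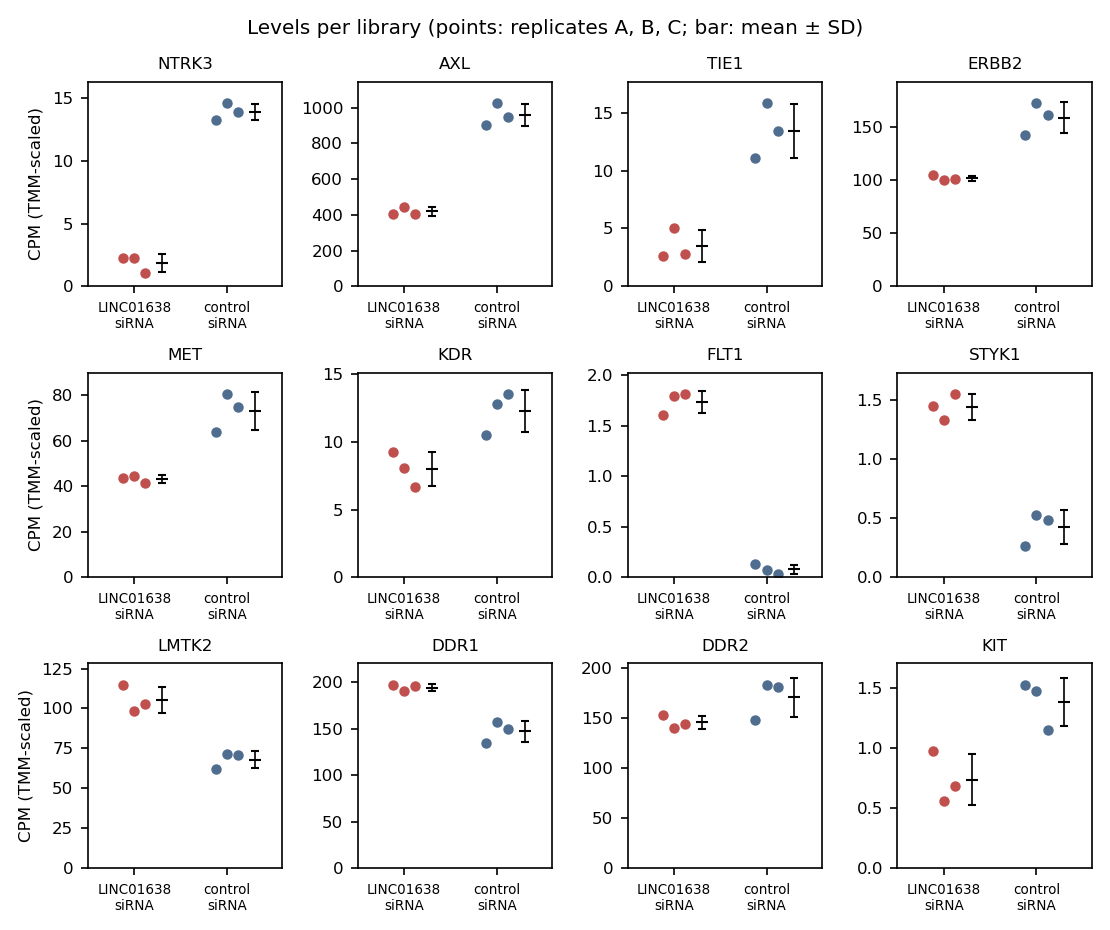
Scaled CPM of 12 receptor genes in each library, LINC01638 siRNA left and control siRNA right of each panel, with the mean ± SD of 3 libraries beside the points and each axis starting at 0. The groups do not overlap in 11 panels, and in the DDR2 panel control replicate A lies within the range of the LINC01638 siRNA libraries. The 12 genes are a selection. Over all members tested the share without overlap was 64.5%, against 61.5% of all genes tested.

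Of the 4 FGF receptor genes, FGFR1 and FGFR3 fell slightly. FGFR1 had 147, 146 and 143 CPM with LINC01638 siRNA, against 163, 181 and 177 CPM with control siRNA (1.20-fold lower, adjusted p = 1.57e-04). FGFR3 had 27.9, 28.3 and 27.8 CPM, against 34.0, 37.7 and 38.1 CPM in control libraries (1.31-fold lower, adjusted p = 1.67e-05). For both genes every LINC01638 siRNA library lay below every control library. FGFR4 averaged 4.43 ± 0.555 CPM with LINC01638 siRNA and 3.82 ± 0.141 CPM with control siRNA and did not pass (adjusted p = 0.131). FGFR1 kept 60.3% to 61.4% of the family per length with LINC01638 siRNA and 59.7% to 60.4% with control siRNA. Among FGF ligand genes FGF18 fell 2.07-fold to 7.06 ± 0.764 CPM with LINC01638 siRNA, against 14.6 ± 0.692 CPM, and FGF2, the most abundant, fell 1.15-fold. Of the heparan sulfate proteoglycans that help FGF bind, GPC1 fell 1.53-fold and SDC4 rose 1.40-fold. INSR, the insulin receptor, had 20, 16.3 and 20.2 CPM with LINC01638 siRNA, against 14.0, 18.9 and 17.3 CPM with control siRNA, and did not pass (adjusted p = 0.185).

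The collagen receptors DDR1 and DDR2 moved in opposite directions. DDR1 (chromosome 6, 30876421 to 30900156, plus strand, ENSG00000204580.14), the collagen receptor typical of epithelia, had 196, 190.0 and 195 CPM in LINC01638 siRNA libraries, against 134, 157 and 149 CPM in control libraries. All 3 values exceeded the highest control value (1.32-fold higher, adjusted p = 2.84e-06). DDR2, the collagen receptor typical of mesenchyme, had 153, 140 and 145 CPM with LINC01638 siRNA, against 148, 183 and 182 CPM with control siRNA. Control replicate A lay within the LINC01638 siRNA range, and the fall was 1.17-fold (adjusted p = 0.0117, and 0.0562 without control replicate C). Per length DDR1 made up 60.1% to 61.4% of the pair with LINC01638 siRNA and 49.1% to 51.5% with control siRNA, a difference of 10.7 percentage points with no overlap.

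**Figure D4:**
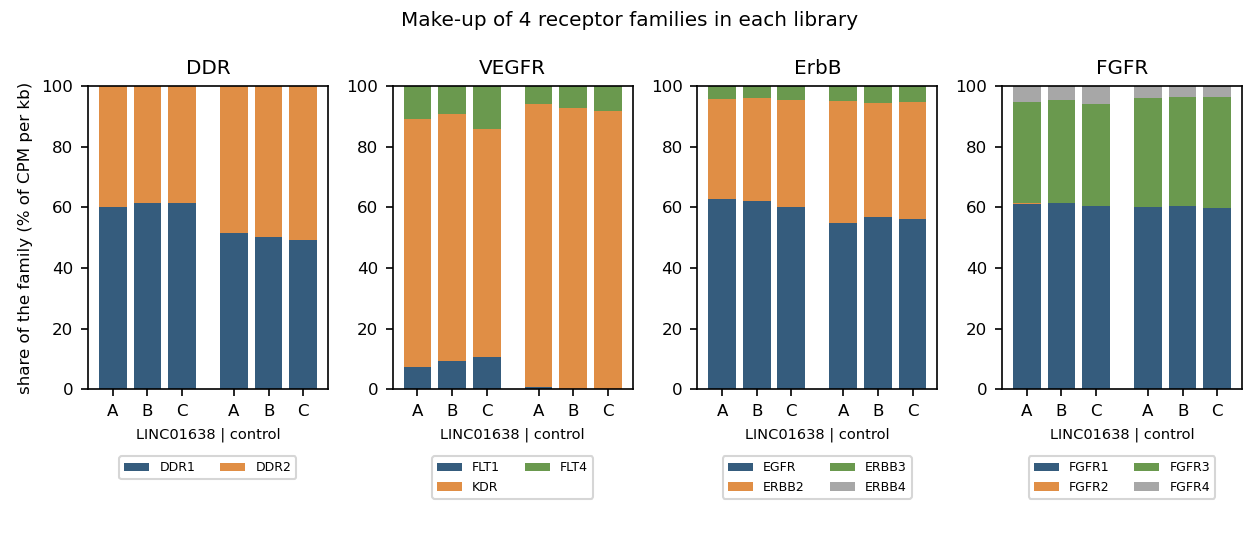
Share of each member in its receptor family, as a percentage of the family's CPM per kb, in each library (LINC01638 siRNA replicates A to C on the left of each panel, control siRNA on the right). DDR1 takes 60.1% to 61.4% of the DDR pair with LINC01638 siRNA and 49.1% to 51.5% with control siRNA, and FLT1 becomes visible in the VEGFR panel with LINC01638 siRNA.

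Of 4 members with unusual kinase domains, PTK7 was lower and RYK, STYK1 and LMTK2 were higher. PTK7, a Wnt co-receptor, had 243, 216 and 243 CPM with LINC01638 siRNA, against 242, 282 and 269 CPM with control siRNA, overlapping ranges (1.13-fold lower, adjusted p = 0.0191). That call was lost without LINC01638 siRNA replicate B (adjusted p = 0.103), control replicate B (0.0962) or control replicate C (0.0751). RYK, which binds Wnt proteins, had 63.5, 68.7 and 70.5 CPM, against 61.6, 59.3 and 62.1 CPM in control libraries (1.11-fold higher, adjusted p = 0.0228), and lost its call in 3 of the 6 fits without a library, with adjusted p up to 0.145 without LINC01638 siRNA replicate C. WNT5A, a ligand gene of RYK, rose 1.24-fold. STYK1 (NOK), a transforming kinase-like receptor, had 79, 69 and 93 counts with LINC01638 siRNA, against 14, 23 and 26 with control siRNA. The groups were far apart (log2 fold change 1.77, SE 0.254, adjusted p = 6.23e-06). LMTK2, a lemur kinase of endosomal traffic that phosphorylates serine and threonine, had 114, 98.3 and 103 CPM, against 62.1, 71.3 and 70.8 CPM in control libraries (1.55-fold higher, adjusted p = 1.07e-07). Among members of at least 20 CPM this was the largest rise.

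The remaining members were scarce. ROS1, whose ligand NELL2 is known from the mouse epididymis, was at 36 to 43 counts with LINC01638 siRNA and 12 to 23 with control siRNA (1.85-fold higher, adjusted p = 0.0166), and lost its call without replicate B of either group (adjusted p = 0.0748 and 0.0733). RET, the receptor of the GDNF family, averaged 1.15 ± 0.0394 CPM with LINC01638 siRNA and 1.39 ± 0.127 CPM with control siRNA and did not pass (adjusted p = 0.245). Its co-receptor gene GFRA1 was abundant beside it, at 99.7 ± 15.2 and 108 ± 7.11 CPM, and did not pass (adjusted p = 0.411). Of the RET ligand genes ARTN fell 1.82-fold to 1.32 ± 0.189 CPM. LTK averaged 0.289 and 0.198 CPM and did not pass (adjusted p = 0.287), while MDK, which encodes midkine, a proposed ALK ligand, rose 1.43-fold to 118 ± 4.51 CPM, against 82.4 ± 1.94 CPM. MUSK, the agrin-dependent receptor of the neuromuscular junction, had at most 2 counts in a library, whereas AGRN averaged 557 ± 26.5 and 586 ± 67.4 CPM and did not pass (adjusted p = 0.398).

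Over the listed growth factors, 41 of 62 ligand genes were tested, and 14 were higher and 16 lower with LINC01638 siRNA (median log2 fold change −0.07). Of the ligand genes tested, 5 passed the count filter through the LINC01638 siRNA libraries alone, and EGF, AREG and FGF12 among them are in the count of those higher. Of the 20 co-receptor genes 16 were tested, 7 higher and 6 lower (median 0.08). These shares, 73.2% and 81.2% called, stand beside 56.0% of all genes tested and 69.5% of those at 5 CPM or more. The plot of receptors beside ligands shows both directions among the receptor and ligand genes of several families.

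**Figure D5:**
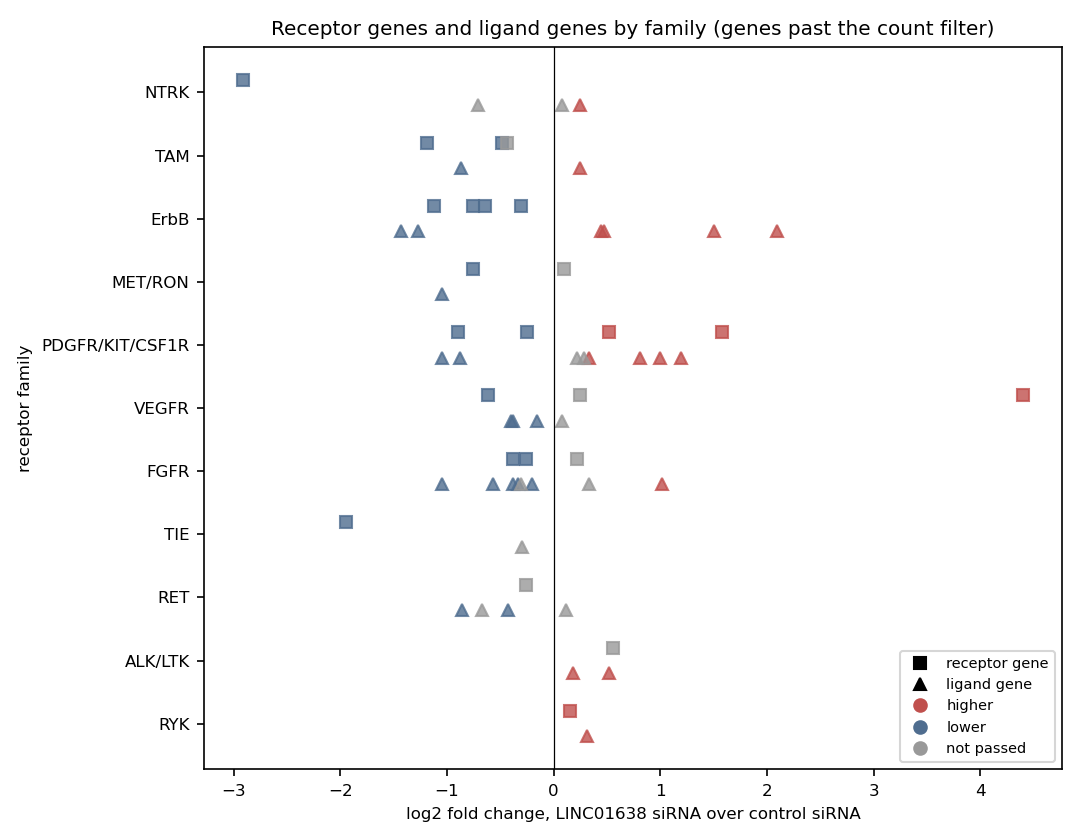
Log2 fold change (LINC01638 siRNA over control siRNA) of receptor genes (squares) and of the listed ligand genes (triangles) by receptor family, for genes past the count filter, coloured by direction among genes past an adjusted p of 0.05. In the ErbB row all 4 receptors lie left of 0 and the ligands lie on both sides, with NRG1 and NRG2 lower and HBEGF, EPGN, AREG and EGF higher. Among all genes tested, 29.6% were called lower and 26.3% higher.

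Shared adaptor genes changed little in size. Of 26 tested, 9 were higher, 8 lower and 9 did not pass, a share of 65.4% called, against 56.0% of all genes tested and 69.5% of those at 5 CPM or more (median 0.01). A change of 1.5-fold was called for 3 of the 26, where 22.8% of all genes tested had one. GRB2, the adaptor that links receptors to RAS, averaged 261 ± 5.96 CPM with LINC01638 siRNA and 266 ± 7.54 CPM with control siRNA and did not pass (adjusted p = 0.701). GAB2, a docking protein for PI3K and SHP2, fell to 25.0 ± 2.15 CPM, against 47.4 ± 1.45 CPM with control siRNA (1.90-fold, adjusted p = 3.07e-10). SHC3 fell 1.78-fold and IRS1, the docking protein of the insulin receptor, 1.47-fold. PTPN11, which encodes the phosphatase SHP2 needed for RAS activation, rose 1.41-fold to 363 ± 4.99 CPM, against 258 ± 10.1 CPM, and SHC1 rose 1.32-fold.

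Of 28 tested genes that restrain or recycle receptors, 11 rose, 11 fell and 6 did not pass (median −0.03). The share called was 78.6%, against 56.0% of all genes tested and 69.5% of those at 5 CPM or more. The number lower was 5 with library totals and 7 without control replicate B. ERRFI1 (MIG6), a direct inhibitor of EGFR and ERBB2, rose 1.81-fold to 92.4 ± 2.98 CPM with LINC01638 siRNA, against 51.1 ± 1.54 CPM with control siRNA (adjusted p = 2.95e-11). STAM, an endosomal sorting gene, rose 1.45-fold, and the receptor phosphatase gene PTPRF fell 1.71-fold to 466 ± 27.9 CPM, against 798 ± 70.6 CPM. GRB10, an adaptor that inhibits the insulin receptor, fell 1.48-fold. The ubiquitin ligase genes CBL and CBLB, named after their values were seen, rose 1.14-fold and 1.13-fold.

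Genes induced by ERK signalling downstream of receptors divided. Of 17 tested, 9 rose, 6 fell and 2 did not pass (median 0.26). The share called was 88.2%, against 56.0% of all genes tested and 69.5% of those at 5 CPM or more. The number lower was 3 with library totals and also 3 without LINC01638 siRNA replicate C. The ETS factor genes ETV4 and ETV5 rose 2.19-fold and 2.39-fold, and SPRED1, which blocks RAS activation, rose 1.71-fold to 59.8 ± 2.66 CPM, against 35.0 ± 0.290 CPM with control siRNA. EGR1, an immediate early factor, fell to 288 ± 22.3 CPM with LINC01638 siRNA, against 730 ± 41.6 CPM with control siRNA (adjusted p = 1.32e-12), and FOS fell 1.47-fold. The phosphatase gene DUSP6 and the feedback genes SPRY4 and SPRED2, named after their values were seen, rose 2.65-fold, 1.99-fold and 1.68-fold. Of the same families SPRY1 rose 1.5-fold, SPRED3 rose 1.2-fold and DUSP4 fell 1.34-fold. DUSP5 and SPRY2 did not pass (adjusted p = 0.549 and 0.771).

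Summed over the 37 members, receptor RNA came to 1868 to 1931 CPM in LINC01638 siRNA libraries and 2407 to 2820 CPM in control libraries. Without AXL the sums were 1423 to 1524 CPM and 1502 to 1796 CPM. In bulk RNA, fewer cells that express a receptor and less of its RNA per cell cannot be told apart.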

How the data were processed

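Per the labels' protocols, 12Z RNA was depleted of ribosomal RNA and made into directional libraries. Per the submitters' processing notes, the build was GRCh38 (hg38) and the tools included R 4.2.1 and the aligner STAR 2.7.10b. The authors deposited raw fragment counts per gene, without normalization, in 1 table per library. Their annotation release and trimming were not given in the sources used here, and gene positions and exon lengths come from GENCODE 29. Rows for reads mapping to several places hold 0, so near-identical genes are counted only where reads map uniquely. The reverse-strand column was used. The 4 rows that name no gene were left out of library sizes and tests: unmapped reads were 11.9% to 13.1% of fragments, reads outside exons 8.32% to 15.1% and reads over several genes 7.02% to 7.76% of mapped reads.

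Symbols matched exactly for 61918 genes and without the version for 754. Groups and replicate letters came from the treatment labels and titles. Counts were filtered with filterByExpr (minimum count 10, minimum total 15), which kept 18569 genes, scaled by TMM and tested in edgeR (robust quasi-likelihood fit, group only). Benjamini-Hochberg adjustment covered every gene tested, and the threshold was 0.05. All adjusted p-values in the text are edgeR's unless another tool is named. Log2 fold changes are LINC01638 siRNA over control siRNA, and their SE was taken from the F statistic (size of the change over root F). Figures were drawn with matplotlib 3.10.9 in Python 3.11.15 (pandas 2.3.3), and tests ran in R 4.3.3 with edgeR 4.0.16, DESeq2 1.42.0 and limma 3.58.1. The tests were first tried on simulated data. Replicates of a group differed by more than sampling noise, so none was counted as a repeat of another. Start regions came from RefSeq (GRCh38.p14), where 33 of the 37 members matched.

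The members and lists were chosen with earlier results of these data known. Named with values per library are members past the threshold with at least 1 CPM and a log2 fold change of at least 0.5 in size, and members of at least 20 CPM. Of each pathway list, up to 4 genes of lowest p and 2 of highest level were named. Other named genes, such as further ligands of a family described, were chosen after their values were seen. Alternatives were limma-voom, DESeq2's Wald test, its size factors, library totals, a filter of 1 CPM in 3 libraries, no filter, the replicate letter as a block, counts without strand and leaving out each library.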

Additional observations from a re-analysis of the deposited data

Results flagged for a closer look

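Reads on the strand opposite a member belong to no comparison above. Only a rise in these reads with LINC01638 siRNA was searched for, so members in which they fell are not in the count. For 5 members they were higher, relative to library totals, in every LINC01638 siRNA library than in any control library, with at least 10 reads per LINC01638 siRNA library on average. The whole column held 3602799 to 4126449 counts with LINC01638 siRNA and 3148757 to 3801566 with control siRNA. Relative to library totals, the whole column was also higher in every LINC01638 siRNA library than in any control library. In replicate A it held 3759217 beside 52360090 gene counts with LINC01638 siRNA, and 3796693 beside 55031286 with control siRNA. The share of all genes with such a rise was not counted, nor the number of members with enough reads. Whether the rise was particular to these 5 members was not tested.

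Opposite CSF1R the LINC01638 siRNA libraries had 82, 75 and 83 reads (mean 80.0), against 22, 35 and 54 in control libraries, more than the 0 to 14 reads on its own strand. DDR1 had a mean of 64.7 such reads with LINC01638 siRNA and 23 to 50 per control library. For RYK the mean was 49.7, against 20 to 28 in control libraries. PTK7 had a mean of 30.0, against 22 to 25, and LMTK2 a mean of 14.3, against 7 to 9. Apart from CSF1R these were at most 1.07% of the reads on both strands. Opposite AXL and ERBB2 such reads went the other way, lower relative to library totals in every LINC01638 siRNA library than in any control library. AXL had 76, 59 and 52 with LINC01638 siRNA, against 135, 98 and 132 with control siRNA. ERBB2 had 859, 792 and 922, against 1082, 879 and 940. None of these differences was tested.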

How the results depend on the processing

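Of the 31 members tested, 31 kept direction and side of the threshold with DESeq2 size factors, limma-voom and the replicate block. Replicate letters did not pair the libraries (correlations of same-lettered deviations −0.12, −0.0536 and −0.0129). With the replicate block 24 members were called, 16 lower and 8 higher, as without it. The DESeq2 Wald test lost CSF1R, and the unfiltered fit and the counts without strand lost RYK. The stricter filter dropped 4 members: ERBB4, CSF1R and ROS1, which had been called, and LTK. It lost PDGFRB and PTK7 (adjusted p = 0.0688), and called 19 members, 13 lower and 6 higher. Library totals lost 4 calls (given above) and added FGFR4 and INSR. Leaving out 1 library called 19 to 25 members. Members that lost a call were EGFR, PDGFRB, CSF1R, DDR2, PTK7, RYK and ROS1, and MERTK, FGFR4 and INSR gained one. The inhibitor genes called lower fell to 5 with library totals and to 7 with the stricter filter, and ranged from 7 to 11 without 1 library, with 7 without control replicate B. The ERK feedback genes called lower were 3 with library totals and 3 to 6 without 1 library, with 3 without LINC01638 siRNA replicate C. Among genes that did not pass, MST1R reversed to −0.02 with counts without strand and ranged from −0.10 to 0.29 without 1 library. AGRN was 0.03 with library totals and −0.15 to 0.01 without 1 library, and CD44 −0.06 to 0.10. With raw CPM in place of CPM per kb, the AXL share differed by −3.02 percentage points (−1.59 per length) and that of FLT1 by 14.98 (8.84 per length). The log2 fold change of CSF1R was 0.99 with counts without strand and 2.22 with limma-voom. The cause of these shifts was not tested. Low counts limit ERBB4, KIT, CSF1R, ROS1 and the 6 untested members, and low control counts limit FLT1.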

Other observations

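Reads over ALK and MUSK lay mostly on the opposite strand. ALK had 37, 12 and 25 opposite-strand reads with LINC01638 siRNA and 9, 11 and 17 with control siRNA, beside 1 to 3 on its own strand. The 59 RefSeq start regions of 33 members stood on both sides of the share over all start regions. The GC box was in 32 of them (54.2%, against 42.6% of all start regions), the E-box word in 11 (18.6%, against 17.5%), the AP-1 word in 6 (10.2%, against 6.57%) and the EGR word in 5 (8.47%, against 4.72%). The ETS word was in 6 (10.2%, against 14.5%) and the TATA word in 5 (8.47%, against 10.7%). Their median GC content was 64.4%, against 58.0% over all start regions, while their median number of CpG sites (C followed by G) was lower, 9 against 11. For 43 of the 59 regions the bases after the start were found in an annotated transcript of the gene. Some members have several start regions, and none of these differences was tested.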
